A study of Homo sapiens with 4 samples.

Results

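The sites described here are dense groups of Fra-1 binding peaks in BT549 cells. A group was formed by sorting the Fra-1 peaks that the authors called against IgG on chromosomes 1 to 22 and X by position. Neighbouring peaks were joined where the gap between them was at most 12.5 kb, and groups of 5 or more peaks were kept. This gave 189 groups with 1092 peaks, out of 16089 peaks on these chromosomes (6.79%) and 16133 in the whole list. The other peaks lay in 10387 smaller groups, of which 7105 held 1 peak. BT549 is a human breast cancer cell line without oestrogen receptor alpha. The cells were untreated and were grown in RPMI 1640 with 10% FBS. The series holds 4 libraries of sonicated nuclei: ChIP with an antibody to Fra-1 (R-20, sc-605), ChIP with an antibody to DDX5 (ab21696), ChIP with normal rabbit IgG (sc-2027) and input DNA. The members were chosen by the positions of the peaks in the list over IgG, and so by what was called against that control. Each library was made once, so there are no replicates and no difference between libraries could be tested.

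Fra-1 is a Fos-family protein. It pairs with a Jun-family protein to form AP-1, a transcription factor that binds short DNA motifs, for the most part in enhancers and open chromatin. In mesenchymal breast cancer cells that lack oestrogen receptor, Fra-1 is a leading AP-1 subunit. Enhancers that lie close together are often joined into 1 stretch, and the longest and most heavily bound stretches are called super-enhancers. The joining distance used here is the one customary for that purpose, but no enhancer mark was measured in this series. DDX5 is an RNA helicase of the DEAD-box family that also acts as a coactivator of transcription, and the series asks where it and Fra-1 bind in common.

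Each peak is described by its pileup, its fold and its IgG level. The pileup is the depth of ChIP fragments over the summit, in scaled units. It comes in steps of 0.884, the weight of 1 fragment. The fold enrichment is the ratio of the pileup to the local control level, with 1 added to each. The IgG level, computed back from these values, is the IgG fragment depth that the caller set against the pileup. Its lowest value in the list was 2.67, which peaks on several chromosomes shared. Whether this is a floor set by the caller was not tested, so a fold at a level of 2.67 may not reflect the local IgG depth. The pileup and fold are the authors' own values. The read depth of the libraries is unknown. Positions are in hg19, 1-based, as in the deposited lists, and the genes and sequences at them were not analysed here.

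Most Fra-1 peaks had few neighbours. Of the 16089 peaks, 44.2% stood alone and 27.8% were in pairs. Of the 189 dense groups, 105 held 5 peaks and 52 held 6. Another 14 held 7, 11 held 8, 1 held 9 and 6 held 10, the largest number in the list. The 189 groups made up 1.79% of all groups and held 7.96% of the summed pileup of the list. They spanned a median of 17.4 kb from the first to the last peak (interquartile range 14 to 24.3 kb) and 3646.0 kb in all. The peaks themselves covered a median of 11.9% of the span, so most of each span lay between peaks. The gap from one peak to the next was a median of 2483 bp, and 298 of 903 gaps (33%) were under 1000 bp. In groups of 2 to 4 peaks the median gap was 1806.5 bp, with 38.5% of 4610 gaps under 1000 bp. The joining rule caps every one of these gaps at 12.5 kb and sets the group sizes, so the gaps are a description of the groups and nothing is read from the difference.

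**Figure D1:**
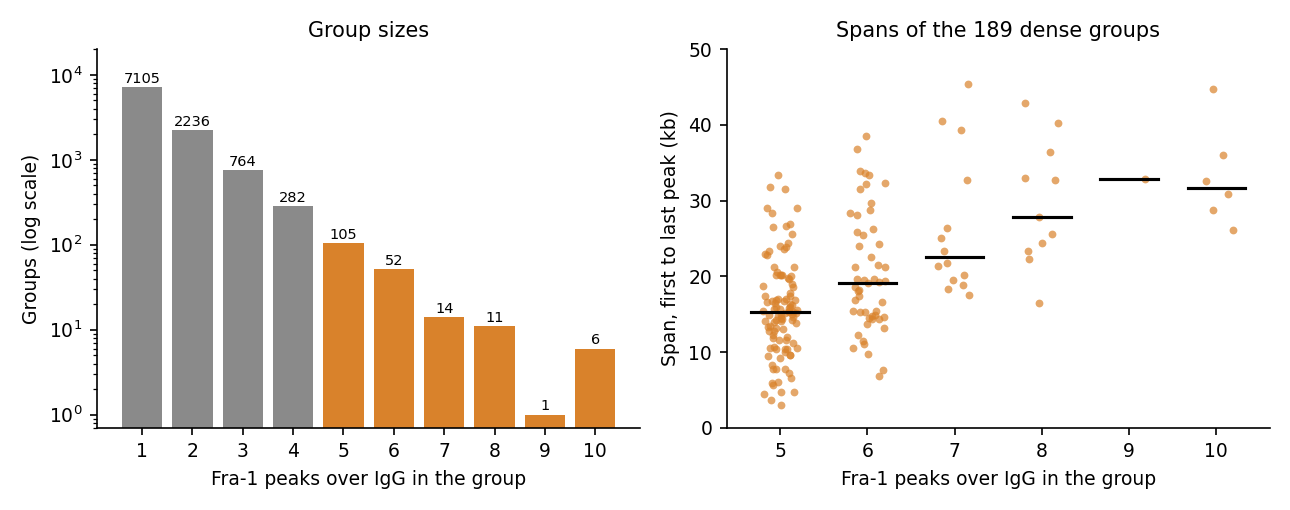
Left, the number of groups (log scale) for each number of Fra-1 peaks over IgG in a group, with dense groups in orange. Right, the span in kb of each of the 189 dense groups, with a black line at the median for each size, from 15.3 kb at 5 peaks to 31.7 kb at 10 peaks.

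The 6 groups of 10 peaks lay on 6 chromosomes. The most compact spanned 26.1 kb at chromosome 1, 223888654 to 223914762. Its folds over IgG, in order along the chromosome, were 11.3, 3.71, 6.43, 4.34, 10.3, 7.14, 6.13, 8.56, 3.99 and 14.2. Strong and weak peaks were mixed, and the strongest fold was at the right end, at 223914376 to 223914762. The highest pileup, 195, was at another peak, 223894862 to 223895263, where the IgG level was 18.0 against 6.60 at the right end. That peak and the one at 223900034 overlapped DDX5 peaks over input, of 4.14-fold and 5.27-fold.

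The group at chromosome 14, 61992154 to 62036905, was the longest of the 6, at 44.8 kb. It began with 4 peaks whose summits lay 6.39 to 12.1 kb apart, of 7.01-fold, 8.73-fold, 7.87-fold and 9.94-fold, and ended with 6 peaks at summit distances of 0.859 to 5.24 kb. These 6 held both its weakest peak, 3.68-fold at 62024055, and its strongest, 19.6-fold at 62029510 to 62029957, with a pileup of 128. The strongest peak did not overlap a DDX5 peak. The 2 that did, at 62024990 and 62031332, had Fra-1 folds of 4.50 and 3.99 at IgG levels of 12.0 and 11, the highest of the group.

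At chromosome 7, 130572000 to 130602857, 1 peak stood out. It lay at 130597529 to 130598587, was 1059 bp wide and had a fold of 17.7, and the other 9 lay between 4.14-fold and 8.66-fold. It overlapped a DDX5 peak of 3.25-fold, as did the weakest peak of the group, at 130590191 (DDX5 4.65-fold). The group at chromosome 22, 27503837 to 27536451, had the lowest summed pileup of the 6, 448. It had 2 peaks on DDX5 peaks, at 27525261 (7.70-fold) and at 27530338 to 27530710, its strongest (14.4-fold). The input level there was low, with a median of 3.27 over the group.

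The group at chromosome 3, 177518011 to 177554005, had the largest ratio of highest to lowest fold of the 6, from 2.25-fold at 177534543 to 17.3-fold at 177527905 to 177528398, the neighbouring peak. Of its 10 peaks, 8 were called over input too. The missing 2, at 177519284 and 177553792, had pileups of 20.3 and 26.5, the lowest of the group. The group at chromosome 8, 67419649 to 67448380, was more even, from 2.95-fold to 10.2-fold. Its median IgG level, 9.10, and its median input level, 8.23, were the highest of the 6, and 1 of its peaks, at 67433949 to 67435304, overlapped a DDX5 peak (2.14-fold).

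**Figure D2:**
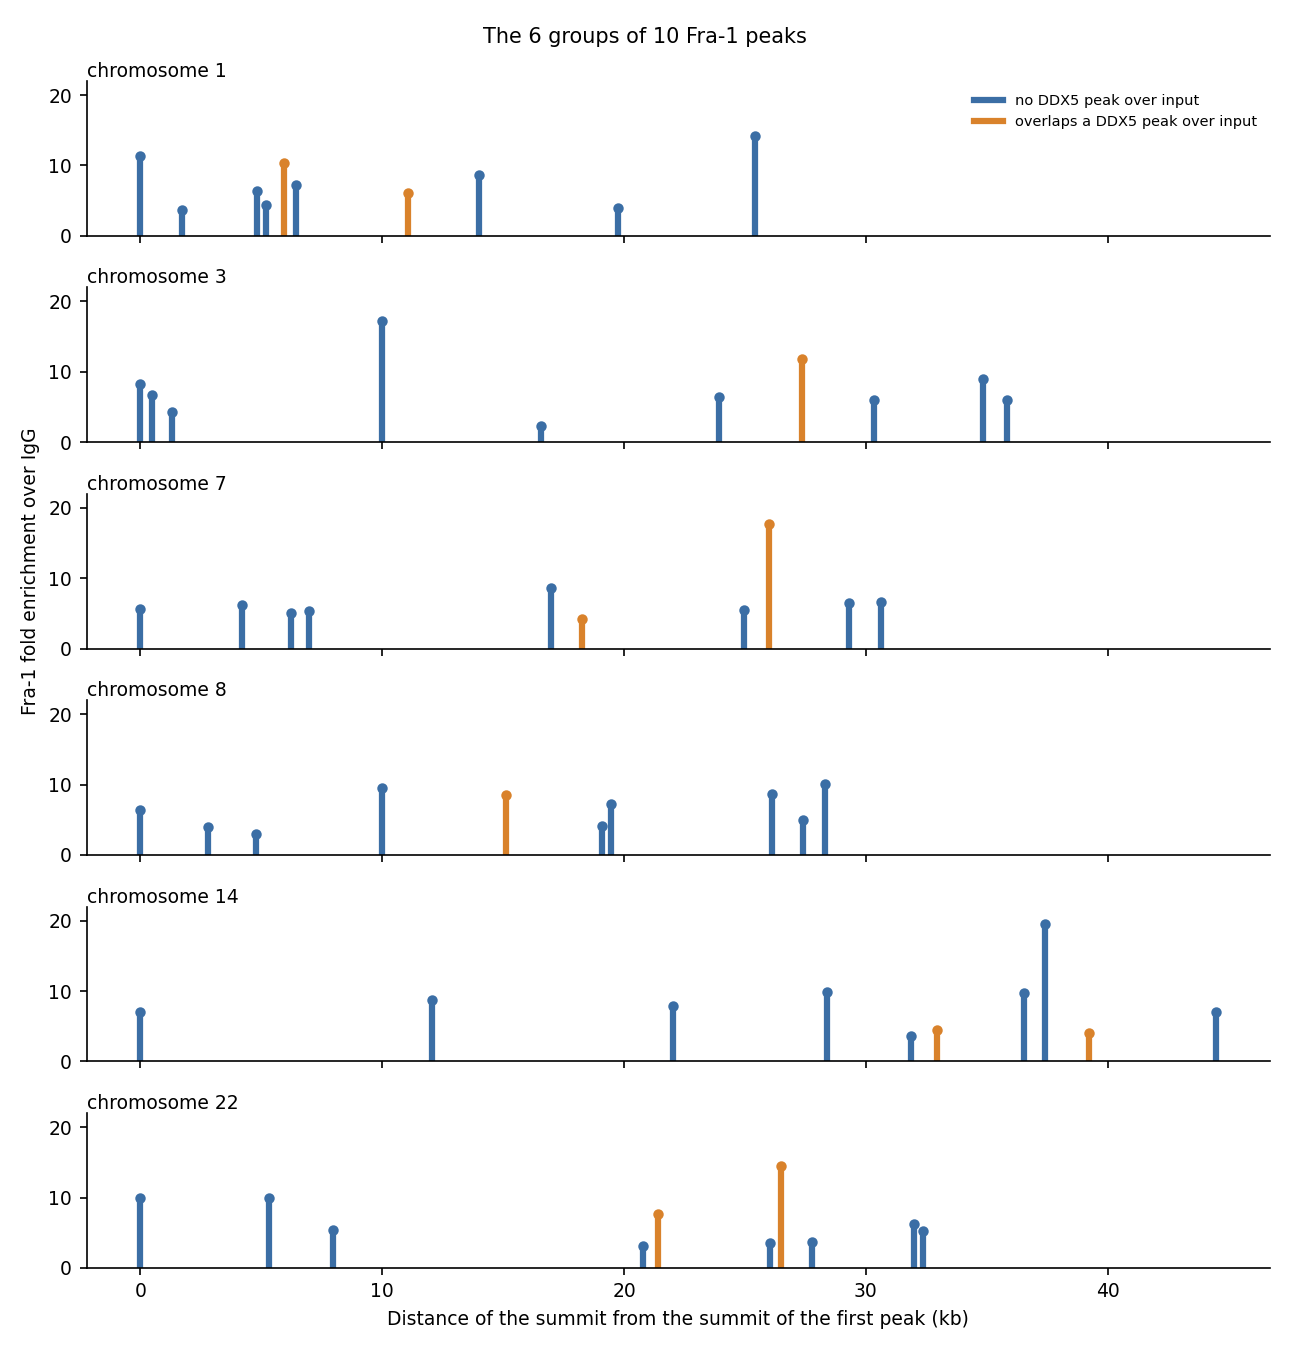
Fra-1 fold over IgG at each summit of the 6 groups of 10 peaks, plotted by distance in kb from the first summit, with peaks that overlap a DDX5 peak over input in orange. Each group mixed strong and weak peaks, and 1 or 2 of the 10 peaks overlapped DDX5, at the strongest peak on chromosomes 7 and 22.

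After these came 1 group of 9 peaks and 11 groups of 8, of which the 3 with the shortest spans are described. The group of 9 peaks at chromosome 1, 8931402 to 8964297 had the largest summed pileup of all 189, 762, although its median fold was 5.69. The IgG level of the group, a median of 12.0, reached 26.0 at 8937934, where Fra-1 reached 18.7-fold over input and 4.52-fold over IgG. Its strongest peak, 14.5-fold with a pileup of 187, was at 8933580 to 8934017. The group of 8 peaks on the same chromosome at 151945472 to 151967788 reached 19.1-fold at its last peak, 151967418 to 151967788. The group of 8 at chromosome 1, 156083865 to 156100357, packed its peaks into 16.5 kb, and 3 of them overlapped DDX5. A further group of 8, at chromosome 2, 161062036 to 161085441, had low control levels, with an IgG median of 5.30. Its strongest fold, 14, came from a modest pileup of 50.4 at an IgG level of 2.67, at 161085103 to 161085441.

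Ranked by summed pileup, the leading 5 were the group of 9 on chromosome 1 (762), the groups of 10 on chromosomes 1 (761) and 8 (760), and groups on chromosomes 20 (730) and 11 (720). The group at chromosome 20, 49951855 to 49983387, reached this sum with 6 peaks. Of these, 3 were large, with pileups of 202, 198 and 184 and folds of 15.6, 16.6 and 10.3, and the 3 between them had pileups of 41.6 to 61.9. Its strongest peak was at 49976906 to 49977857.

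Peaks of 1 group differed widely in strength. The ratio of the highest to the lowest fold in a group had a median of 3.43 (2.55 to 4.34), and in 172 of 189 groups it was at least 2. The peak with the highest pileup held a median of 31.9% of the summed pileup of its group. Of the spread in log2 fold among the 1092 peaks, 18.8% lay between groups, where the 189 groups take up 17.2% of the degrees of freedom. For the pileup the share between groups was 22.9%, and for the IgG level 43.1%. Belonging to the same group therefore went with a like IgG level more than with a like Fra-1 fold. Whether the caller took the IgG level from a window that neighbouring peaks share was not tested. The strongest peak was the first or last of its group in 71 of 189 groups (37.6%), and 34.6% of all dense peaks were first or last.

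At least 8-fold over IgG was reached by 450 of the 1092 dense peaks (41.2%), against 38.8% of all peaks. The list called against IgG chose the groups, so nothing is read from this difference. A peak of that strength was present in 180 of 189 groups. In 3 groups every peak reached it, each with 5 peaks, at chromosome 2, 106013227 to 106026558, chromosome 10, 4705288 to 4720641, and chromosome 18, 42169734 to 42183183. In 9 groups no peak did. The most even group was one of these 9, with 6 peaks of 4.58-fold to 6.39-fold at chromosome 6, 113953397 to 113975957. The most uneven was at chromosome 5, 135342043 to 135360070, from 3.25-fold to 26.4-fold.

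Some groups and peaks at the extremes were singled out after their values were seen. The highest median fold, 19.1, belonged to 5 peaks within 6.01 kb at chromosome 10, 26775097 to 26781104. The first 4 had folds of 19.1, 10.0, 28.0 and 25.8, and the last, set apart from them, 3.84. The IgG level at the first 4 was 4.0 to 5.2, and none of the 5 overlapped DDX5. The shortest group had 5 peaks within 3.06 kb at chromosome 1, 7358284 to 7361338, and peaks covered 64.3% of it. Its middle peak, 7359296 to 7359824, held 48.2% of the summed pileup and overlapped a DDX5 peak of 4.43-fold. The highest fold of any dense peak, 33.8, was at chromosome 6, 4358777 to 4359427, with a pileup of 202, 55.9-fold over input and a DDX5 peak of 6.25-fold. The lowest, 1.93-fold, was at chromosome 17, 57920563 to 57920762, where the IgG level was 53.0, the highest among dense peaks. Fra-1 there was 26.1-fold over input, and the DDX5 peak, 14-fold over input, was the strongest on any dense peak.

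Compared with peaks that stood alone, dense peaks had a higher pileup at nearly the same fold. The median pileup was 52.2 in dense groups (33.6 to 84.0) and 39.8 in groups of 1 (27.4 to 63.7), with 44.2 in pairs and 47.8 in groups of 3 or 4. The median fold over IgG was 6.95 (4.89 to 10.0) and 6.66 (4.92 to 9.66). The IgG level was higher in larger groups, from a median of 5.0 in groups of 1 to 6.60 in dense groups. Dense peaks were also wider, with a median of 336 bp against 299 bp. These values come from the list that chose the groups and are given as a description.

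The input library was not used by the rule. The input level at the matching Fra-1 peak over input had a median of 5.42 in dense groups and 4.45 in groups of 1. The Fra-1 fold over input had a median of 9.85 and 8.45. Neighbouring dense peaks could share a match and its values. The 1067 dense peaks with a match overlapped 1021 distinct peaks over input, and the 6950 single peaks overlapped 6961. At chromosome 1, 156096612, a dense peak of 2.89-fold over IgG had 15.3-fold over input. Its neighbour at 156096013, of 8.12-fold over IgG, had the same value. How far such sharing moved the dense medians was not tested. Input DNA follows copy number and how well a region is recovered, and whether either bears on the number of peaks in a group was not tested. Within chromosomes, the median input level was higher at dense than at single peaks on 18 of 23, lower on chromosomes 6, 17, 22 and X, and equal within 0.005 on chromosome 18.

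**Figure D3:**
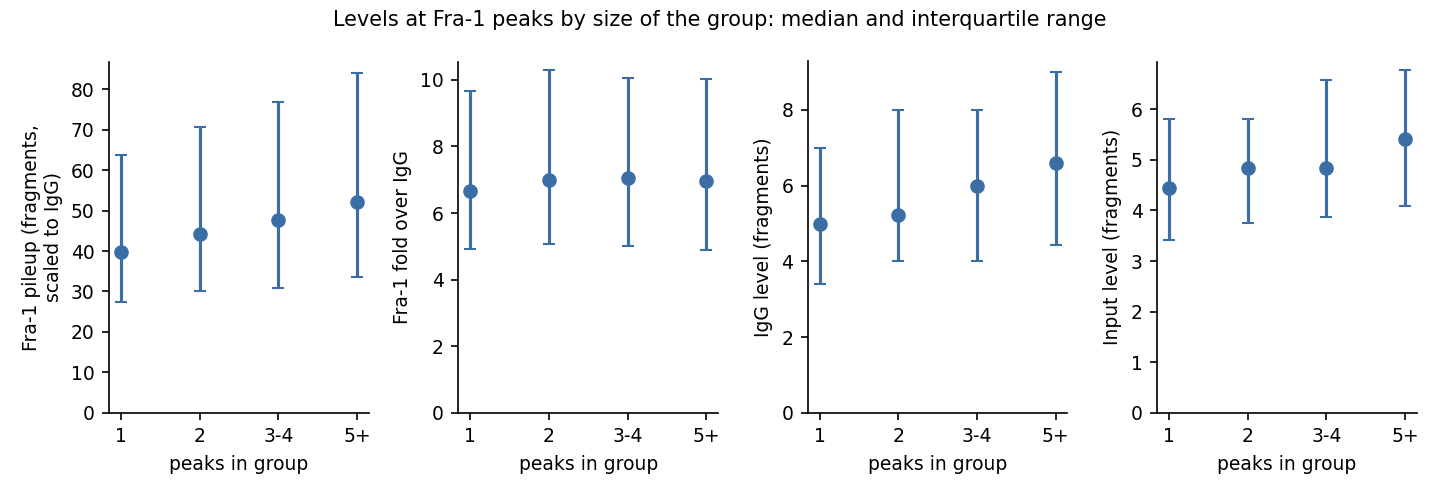
Median and interquartile range at Fra-1 peaks in groups of 1, 2, 3 to 4, and 5 or more. The panels show the pileup (scaled), the fold over IgG, the IgG level and the input level. The IgG and input levels come from different contrasts, so their scales are not compared. The medians of pileup, IgG level and input level were highest in groups of 5 or more, and the interquartile ranges of the 4 classes overlapped in every panel.

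Groups just outside the rule looked much like those just inside. The 282 groups of 4 peaks had a median fold of 7.01, a median pileup of 48.6 and a median IgG level of 6.0, and the 105 groups of 5 had 6.92, 51.3 and 6.0. Of the 189 dense groups, 10 had another Fra-1 peak 12.5 to 15 kb away that the joining distance left out, and 55 included a gap of over 10 kb.

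Most dense groups also touched a group of 5 or more in the Fra-1 list over input. Of the 1092 dense peaks, 1067 were also found over input (97.7%, 96.6% to 98.5%, a 95% exact binomial range), as were 97.8% of single peaks and 97.7% of all peaks. Both lists share the Fra-1 library, so this overlap compares the controls. The other 25 dense peaks were weak, with a median pileup of 22.1 and a maximum of 29.2, and none overlapped DDX5. In 167 of 189 groups every peak was in both lists. The spans also held 145 Fra-1 peaks over input with no counterpart over IgG, in 80 groups, with a median fold over input of 4.09 against 9.59 for those with a counterpart. Joined by the same rule, the list over input formed 658 groups of 5 or more, and 173 of these (26.3%) touched 173 of the 189 dense groups (91.5%). In dense groups, 1067 peaks over IgG shared 1021 peaks over input, so that 1 peak over input sometimes spanned several over IgG.

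The dense groups were spread over all 23 chromosomes, unevenly. Chromosome 1 held 26, chromosome 10 held 20, chromosome 3 held 16 and chromosome 8 held 15, and chromosomes 12, 13 and 21 held 2 each. As a share of the Fra-1 peaks of the chromosome, dense groups held 12.2% (10.2% to 14.5%) on chromosome 10, 11.7% on chromosome 22, 10.5% on chromosomes 11 and 14, 9.67% on chromosome 1, 9.44% on chromosome 19 and 9.31% on chromosome 8. The share was 1.47% (0.708% to 2.69%) on chromosome 12, 2.95% on chromosome 13 and 3.94% on chromosome 4. The median input level at Fra-1 peaks was 5.23 on chromosome 10, 7.55 on chromosome 8, 5.81 on chromosome 1 and 4.07 on chromosome 19. It was 3.87 on chromosomes 4, 11, 12, 13, 16, 18, 22 and X, where the shares ran from 1.47% to 11.7%. The shares on chromosomes 16, 18 and X were 6.08%, 4.48% and 5.48%. Whether the input level bears on the share was not tested. The dense groups were mostly far from each other, a median of 2954.5 kb to the nearest, and 14 lay within 100 kb of another. The closest pair, 18.9 kb apart, was at chromosome 1, 8150265 to 8157883 and 8176801 to 8198092, with 6 peaks each.

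DDX5 peaks over input were more frequent at dense Fra-1 peaks than at single ones before the IgG level was considered. Of the 1092 dense peaks, 142 (13.0%, 11.1% to 15.1%) overlapped a DDX5 peak by at least 1 bp, against 525 of 7105 single peaks (7.39%, 6.79% to 8.02%) and 8.7% of all 16089 peaks. The share was 8.54% in pairs and 10.3% in groups of 3 or 4. Peaks of 1 group share their surroundings, so these intervals, which cover counting error only, are too narrow. The mean of the shares in the 189 groups was 12.6%. By chromosome, the share was higher at dense than at single peaks on 16 of 23 and lower on 7. Some of these dense shares rest on few peaks, such as 10 on chromosome 12. The IgG level was also higher at dense peaks on 19 of 23, lower on 1 and equal within 0.005 on 3.

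The share of peaks on DDX5 rose with the IgG level, which was also higher at dense peaks. The 16089 peaks were ranked by IgG level into 5 parts of about equal size, with median levels of 2.80, 4.0, 5.2, 7.0 and 11. In the lowest part, 0 of 113 dense peaks, where a count of 0 allows a share of up to 2.65% (3 counts of the total), and 0.816% of single peaks overlapped DDX5. In the next 3, the shares were 1.55% and 1.54%, then 4.83% and 4.30%, then 12.8% (8.87% to 17.7%) and 8.35% (6.91% to 9.98%). In the highest part they were 29.2% (24.4% to 34.3%) and 27.4% (24.8% to 30.0%). The intervals of dense and single peaks overlapped in all 5 parts. With 113 to 336 dense peaks in a part these intervals are wide, so their overlap does not show that the shares are alike. With the 5 parts weighted equally, a comparison added after the data were seen, the shares were 9.67% in dense groups and 8.48% in groups of 1. No interval was computed for these, and whether the IgG level bears on the difference was not tested.

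**Figure D4:**
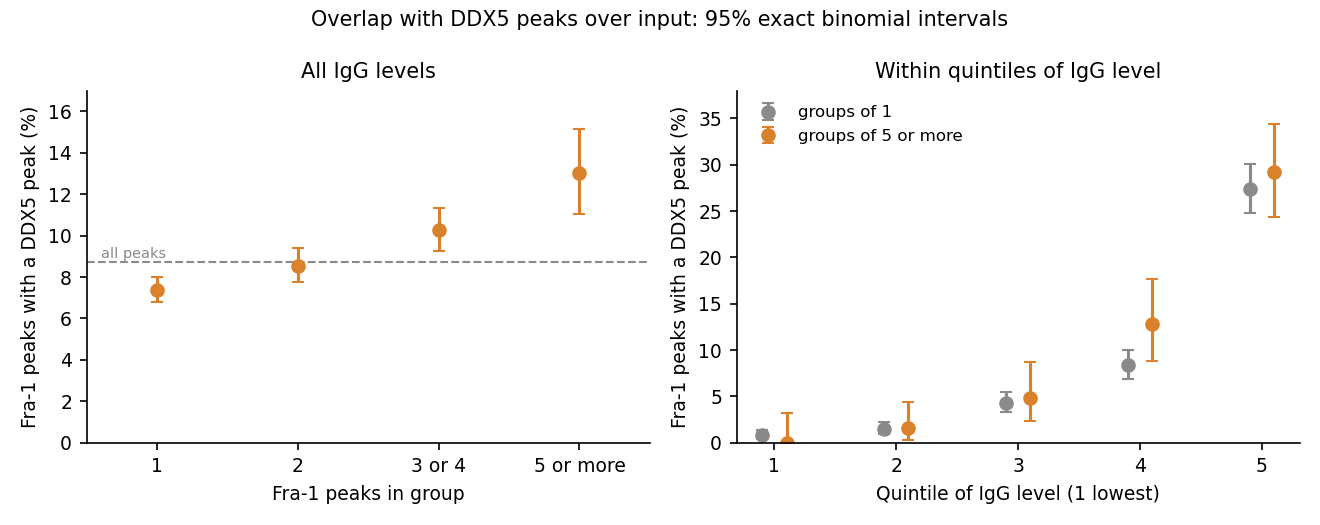
Left, the share of Fra-1 peaks over IgG that overlapped a DDX5 peak over input by group size, from 7.39% to 13.0%, with all peaks as a dashed line. Right, the same share within 5 equal-sized parts of the list ranked by IgG level (bars, 95% exact binomial intervals). The intervals of dense groups and groups of 1 overlapped throughout, but they are wide, so this does not show that the shares are alike.

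Against IgG, no DDX5 peak lay in any of the 189 spans. That list holds 61 DDX5 peaks. Of the 16089 Fra-1 peaks over IgG, 8 overlapped one of them (0.0497%), and 4 of these 8 stood alone. A count of 0 among 1092 dense peaks allows a share of up to 0.275% (3 counts of the total).

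Inside the dense groups, the peaks on DDX5 were larger at the median, though the interquartile ranges of the pileup overlapped. Their median Fra-1 pileup was 101 (64.6 to 148), against 47.8 (32.7 to 74.3) for the 950 without DDX5. Their median fold over input was 18.5 against 9.19, and over IgG 8.37 against 6.75. The median IgG level was 11 against 6.0, while the input level was lower, 4.84 against 5.52. Single peaks showed the same order for the pileup, with 70.7 and 38, and for the IgG level, with 10.0 and 5.0. The fold over input had that order as well, with 14.2 and 8.22. The fold over IgG did not, with 6.53 and 6.66, nor did the input level, with 4.84 at single peaks with DDX5 and 4.34 without. Fra-1 and DDX5 summits lay a median of 65 bp apart at the 142 peaks, and 69 bp at single peaks.

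By group, 88 of 189 had at least 1 peak on DDX5: 52 had 1, 24 had 2, 8 had 3, 2 had 4 and 2 had 5. Of all Fra-1 peaks, 8.7% overlapped DDX5, and a group of 5 or more has more chances of an overlap than 1 peak. The counts of groups are therefore a description, and no trait of dense groups is read from them. In those 88 groups, a mean of 27.0% of the peaks overlapped DDX5. The peak with the highest pileup overlapped DDX5 in 55 of the 88, and the peak with the highest fold over IgG in 35. The 88 groups had a median IgG level of 7.60 and a median summed pileup of 460.3, and the 101 without had 5.0 and 301. The median number of peaks was 6 in the 88 and 5 in the 101. Both the summed pileup and the chances of an overlap rise with the number of peaks, so nothing is read from the difference in summed pileup. In 6 more groups DDX5 peaks lay only between the Fra-1 peaks, which made 94 groups (49.7%, 42.4% to 57.1%) with a DDX5 peak in the span. The fullest of these 6, at chromosome 8, 11711438 to 11734850, held 5 DDX5 peaks and 5 Fra-1 peaks over IgG that did not touch. Its DDX5 peaks at 11720000 and 11724749 overlapped Fra-1 peaks over input.

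The 94 spans held 193 DDX5 peaks, of which 141 lay on a Fra-1 peak over IgG, 32 on a Fra-1 peak over input alone and 20 on neither. Their median fold over input, 3.97, was close to that of the 10569 DDX5 peaks elsewhere, 4.16, and 3 reached 8-fold (1.55%, against 2.31% elsewhere). DDX5 summits numbered 5.24 per 100 kb in the spans and 2.07 per 100 kb in the 12.5 kb on either side. The flanks are free of Fra-1 peaks over IgG by the rule, so the 2 densities are not independent of it. Joined by the same rule, DDX5 over input formed 260 groups of 5 or more, and 13 of these (5%) touched 13 of the 189 dense Fra-1 groups (6.88%). Most dense Fra-1 groups were thus not dense for DDX5.

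The 4 groups with 4 or 5 peaks on DDX5 are described with 1 of the 8 groups that had 3, taken for its share of peaks on DDX5 and then its shorter span. At chromosome 19, 1168766 to 1184253, 5 of 6 Fra-1 peaks overlapped DDX5, and the span held 13 DDX5 peaks. The Fra-1 folds over IgG along it were 12.0, 2.22, 3.3, 10.7, 2.84 and 9.26. DDX5 was strongest, 7.55-fold, at the weakest Fra-1 peak over IgG, at 1169891. Fra-1 there had 9.95-fold over input and the IgG level was 17. The 3 strong Fra-1 peaks overlapped DDX5 peaks of 5.17-fold, 4.35-fold and 3.74-fold. Of the 13 DDX5 peaks, 7 overlapped no Fra-1 peak over IgG, and 5 of these overlapped no Fra-1 peak over input. A second dense group, 56.0 kb away at 1240222 to 1265680, held 6 Fra-1 peaks of at most 7.18-fold and 9 DDX5 peaks.

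At chromosome 11, 65666769 to 65687002, 5 of 7 Fra-1 peaks overlapped DDX5, and the span held 8 DDX5 peaks. The first 3 Fra-1 peaks were weak, with folds over IgG of 3.27, 3.92 and 4.13, and the last 4 stronger, with 12.1, 8.38, 11.9 and 6.10. The last peak, 65686673 to 65687002, was 49.7-fold over input, the highest of the group, with an IgG level of 28.0. Its DDX5 peak, 8.12-fold, was also the strongest of the group. At the first 2 peaks, DDX5 reached 5.86-fold and 6.73-fold where Fra-1 was weakest over IgG. The strongest Fra-1 peak over IgG was at 65678928 to 65679548. It had the weakest DDX5 partner of the group, 3.97-fold, and the lowest IgG level of the 5, 7.0. The median IgG level of this group, 15, was the second highest of the 189.

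**Figure D5:**
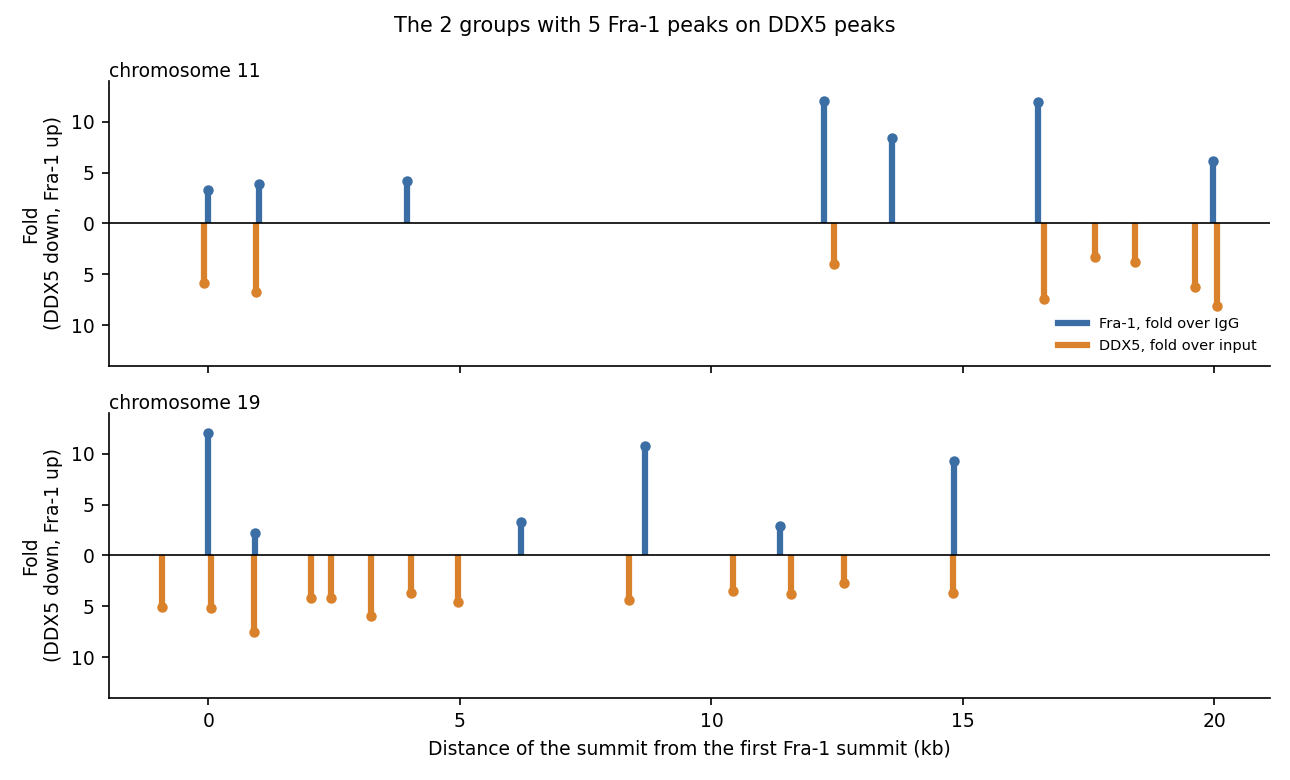
Fra-1 fold over IgG (up, blue) and DDX5 fold over input (down, orange) by distance in kb from the first Fra-1 summit, for the groups on chromosomes 11 and 19 with 5 Fra-1 peaks on DDX5. On chromosome 19, the span held 13 DDX5 peaks and 6 Fra-1 peaks. In both groups the strongest DDX5 peak was not at the Fra-1 peak of highest fold over IgG. Over input, the highest Fra-1 fold on chromosome 11, 49.7, was at the strongest DDX5 peak, 8.12-fold. On chromosome 19 the highest Fra-1 fold over input, 28.4, was at a DDX5 peak of 4.35-fold.

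At chromosome 9, 132245101 to 132259253, 4 of 5 Fra-1 peaks overlapped DDX5, and the exception, at 132251404 to 132251818, had the highest fold over IgG, 10.6, and the lowest IgG level, 7.40. The first 2 Fra-1 peaks lay on 1 DDX5 peak of 3.43-fold. At chromosome 10, 74055819 to 74080830, 4 of 7 overlapped DDX5, with DDX5 folds of 3.43 to 5.15. Of these 4, the peaks at 74079073 and 74079858 lay on 1 DDX5 peak. The Fra-1 folds over IgG of the 4, 3.61 to 5.76, were below those of the 3 peaks without DDX5, 6.41, 7.15 and 8.98. Over input the order differed, with 9.72, 9.72, 16.5 and 16.5 for the 4, and 7.07, 6.65 and 20.3 for the 3. At chromosome 19, 45240054 to 45256873, 3 of 5 overlapped DDX5, at Fra-1 folds of 8.30, 10.1 and 5.95. These groups differed in whether DDX5 lay at the stronger or the weaker Fra-1 peaks over IgG. They were chosen for their DDX5 overlap, so their number of DDX5 peaks is a description.

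The highest fold of the list, 42.7, was in a group of 3 or 4 peaks. The 3 highest among single peaks were 39.1 at chromosome 10, 64192917 to 64193482, 37.2 at chromosome 6, 122115753 to 122116166, and 36.2 at chromosome 12, 87106127 to 87106530. Their IgG levels were 3.12, 4.0 and 2.67, and none overlapped DDX5. The 3 highest in dense groups were 33.8, 33.3 and 28.0, at IgG levels of 5.0, 2.67 and 5.0. These maxima are over 7105 single and 1092 dense peaks, so they are not compared.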

How the data were processed

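The series has 1 library each of Fra-1, DDX5 and IgG ChIP and of input DNA. The submitters' processing notes name CASAVA 1.8, Bowtie 0.12.9, HOMER and hg19, without the step each served, and the sources used here do not give the peak caller. The deposited lists set 1 ChIP library against 1 control, with no pooling.

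The deposited values of a peak are, per the file headers, the pileup (a signal, the fragment depth over its summit) and the fold enrichment (a ratio). The authors deposited 2 further columns with damaged headers, taken by their order and values as the −log10 p-value and −log10 q-value of their peak caller.

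From these, the control level was computed by adding 1 to the pileup, dividing by the fold and subtracting 1. Peaks were joined at gaps of at most 12500 bp, and overlap meant at least 1 shared bp. Where a peak had several partners in another list, the one with the highest −log10 q was used. Parts of the list by IgG level were formed by rank, with ties in order of position. Intervals of shares are 95% Clopper-Pearson (exact binomial) and reflect counting error alone. The limit for a count of 0 is 3 counts of the total. There are no replicates, so no test was made and no p-value is given. Depths are unknown, so the precision of single peaks was not computed. The 44 peaks on other sequences were left out.

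The named positions are the 10 dense groups with the most peaks (ties by shorter span), the 5 with the largest summed pileup, the 5 with the most peaks on DDX5 (ties by larger share of peaks, then shorter span), the peak of highest fold in each, and the 3 single peaks of highest fold. Further ones are marked as singled out. The members, this rule and the comparisons were chosen with earlier results of these data known. The share of peaks with an AP-1 motif, the genes at the groups and the counts over gene lists were planned and were not analysed here, since they need hg19 sequence or annotation.

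Alternatives were other joining gaps and group sizes, peaks of at least 8-fold, stricter overlap, other DDX5 lists, equal weights over IgG levels and the omission of chromosomes 11 or 19. The joining and overlap code was tested on simulated data. The software was matplotlib 3.10.9, scipy 1.17.1, pandas 2.3.3 and numpy 2.4.6 under Python 3.11.15.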

Additional observations from a re-analysis of the deposited data

How the results depend on the processing

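Of 59 alternative values, 27 moved by less than the 95% interval allows or, for counts, by less than 1.5 times. The number of dense groups, 189, and of their peaks, 1092, follows the rule by construction. They became 50 and 270 with a gap of 5000 bp, 382 and 2330 with 25000 bp, 471 and 2220 with at least 4 peaks, and 32 and 255 with at least 7. With only Fra-1 peaks of at least 8-fold joined, 6 groups with 30 peaks were left. The share of dense peaks with a DDX5 peak, 13.0%, became 18.4% with at least 7 peaks, 16.7% (5 of 30) at 8-fold, 8.61% with centres within 100 bp, 6.04% with DDX5 peaks at or above their median fold, 0% with the DDX5 list over IgG and 9.67% with equal weights over IgG levels. The share of single peaks, 7.39%, became 8.03% with a gap of 5000 bp, 9.47% at 8-fold, 6.70% where at least 50% of a peak had to be shared, 4.71% for centres at most 100 bp apart, 3.57% with DDX5 peaks at or above their median fold, 0.0563% over IgG and 8.48% with equal weights. The dense share was the higher one in 9 of the 10 alternatives that gave both, all but the DDX5 list over IgG. These alternatives reuse the same libraries and mostly the same peaks, so the count is a description and not repeated support. The share of dense groups with a DDX5 peak in the span, 49.7%, became 39.9% with at least 4 peaks, 78.1% with at least 7, 83.3% at 8-fold, 28.6% with DDX5 peaks at or above their median fold and 0% over IgG. Overlap with Fra-1 peaks over input became 100% (dense) and 99.95% (single) at 8-fold, and 83.5% and 92.6% with centres within 100 bp. Equal weights and the omission of chromosome 11 or 19 were added after the data were seen. Stricter rules of overlap lower a share by construction, and for the other moves the cause was not tested. No paired analysis was possible because each antibody has 1 library.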
